A study of Homo sapiens with 2 samples.

Results

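ATP-binding cassette (ABC) proteins use the hydrolysis of ATP on paired nucleotide-binding domains to drive their work, and most of them carry membrane-spanning domains that move a substrate across a membrane. The ABCB, ABCC and ABCG families include the pumps that export drugs and their glutathione or glucuronide conjugates, the ABCA family moves lipids, the ABCD family serves peroxisomes and lysosomes, and the ABCF proteins have no membrane-spanning domain and act in translation. Efflux pumps are known for exporting cytotoxic drugs from cancer cells, and P-glycoprotein, the product of ABCB1, is known to carry olaparib. Genes were taken as members by their symbol (ABCA to ABCD, ABCF or ABCG followed by a number). This rule uses no measured value, though the members were chosen with earlier results of these data known. The rule found 30 of the 16978 genes in the deposited table, with 123 of its 47892 transcripts.

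The study compared the human ovarian adenocarcinoma line SKOV3, untreated and wild type per the labels, with its derivative SKOV3_OR, also labelled wild type, which had been held for at least 3 months in olaparib at a sub-IC50 concentration. Olaparib blocks PARP1 and PARP2, enzymes that take part in DNA repair. Both were grown in McCoy's 5A medium with serum, and total RNA was depleted of ribosomal RNA and sequenced as 1 library per line. Whether the derivative is a clone or a pool, and whether olaparib was present when RNA was taken, is not stated in the labels. With 1 library a line, no difference below has a replicate check, and each describes these 2 libraries alone. SKOV3_OR is the resistant and SKOV3 the parental library, and a member that rose or fell did so in SKOV3_OR relative to SKOV3. Where a pair of values is given without the lines, SKOV3_OR comes first, except after "from", where SKOV3 comes first in the values and in the counts beside them.

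The table lists 1 normalized expression value per transcript and library, in a unit that its header does not name (called the listed value), and sequencing depth is unknown. The listed values followed a count divided by the length of the transcript's locus, introns included, so levels of different transcripts are set side by side on that scale only. The epithelial keratin genes KRT7 and KRT8 were high in both libraries, with summed values of 73.3 and 318 in the resistant and 62.6 and 166 in the parental library, and ERBB2, which is amplified in SKOV3, had 3.84 and 5.37. The other epithelial markers were KRT18, at 5.83 and 14.3, and KRT19, EPCAM, CDH1 and PAX8, whose means lay below 1, while MUC16 and WT1 had no listed transcript. None of the 5 leukocyte and endothelial markers had a listed transcript, and the fibroblast markers COL1A1 and COL3A1 summed to 0.316 and 0.249. All 120 member transcripts found in GENCODE release 29 had the same GRCh38 coordinates there, and they were 85 retained-intron transcripts and 35 processed transcripts without an open reading frame. None was annotated as protein-coding, so the values below are those of non-coding isoforms of these genes and do not stand for their mRNA. The type of the other 3 is unknown here.

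Most of the family had low listed values in both lines, as did most genes of the table. With the isoforms of each gene summed, 11 of the 30 members had a mean over the libraries of 1 or more and were called expressed, a share of 36.7% against 34.0% of all genes, and 7 of the other 19 had a mean below 0.1. A mean of at least 0.1 was reached by 23 of the 30 members and by 12675 of the 16978 genes. The median of these means was 0.43 over the members and 0.42 over all genes. The family summed to 53.6 in SKOV3_OR and 39.8 in SKOV3, a ratio of 1.35 where the whole table had a ratio of 1.02. ABCF3, ABCD3, ABCA5 and ABCA7 together held 53.6% of the family's value in SKOV3_OR and 51.3% in SKOV3. The log2 ratio of a gene is the resistant over the parental value after adding a pseudocount of 1 to each, which understates differences of low genes, and genes were called at 2-fold. On this scale 1 of the 11 expressed members rose, ABCC3, where 8.5% of the 5767 expressed genes did. None fell, where 4.37% of expressed genes did. With the libraries rescaled so that the median log2 ratio of all expressed genes was 0, 5.46% of them rose and 6.02% fell, ABCC3 stayed the single member called, and the family ratio was 1.15. The median log2 ratio was 0.40 over the expressed members and 0.16 over all expressed genes, and 7 of the 11 members lay above the latter. In RNA from a whole culture, fewer cells with a transcript and less of it per cell cannot be told apart.

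**Figure D1:**
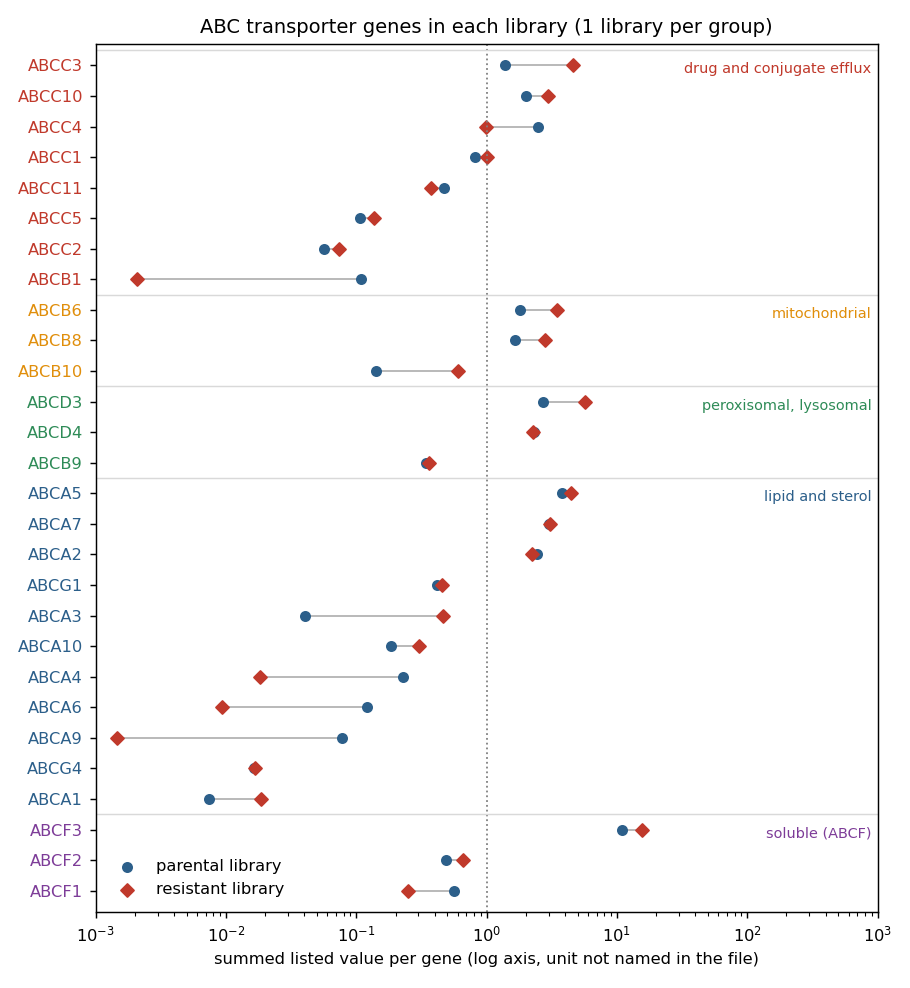
Summed listed value of each ABC transporter gene reported here in the parental (circles) and resistant (diamonds) library on a log axis, 1 library per group, grouped by role; the dotted line marks a value of 1. ABCF3 is the highest gene in both libraries at 11.0 and 15.5, ABCC3 lies at 1.39 and 4.62, and ABCC4 lies at 2.48 and 0.986.

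**Figure D2:**
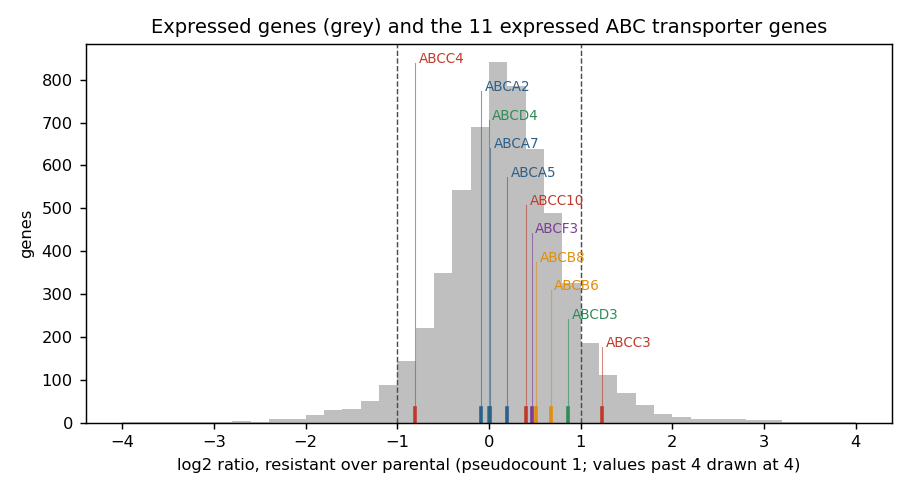
Distribution of the log2 ratio (resistant over parental, pseudocount 1) of 5767 expressed genes in grey, with the 11 expressed ABC transporter genes as coloured ticks; dashed lines mark 2-fold. Of the members only ABCC3, at 1.23, lies past a dashed line, and ABCC4, at -0.81, is the lowest.

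The drug and conjugate efflux pumps held 8 listed genes of the 11 in this class and summed to 10.2 in SKOV3_OR and 7.43 in SKOV3. ABCC3 and ABCC4, both exporters of conjugated organic anions, stood at opposite ends of the expressed members. ABCC3 (ENSG00000108846, chr17:50663160-50691699), a basolateral exporter of glucuronide conjugates and bile salts, had a summed value of 4.62 in SKOV3_OR and 1.39 in SKOV3, a log2 ratio of 1.23, and 95.1% of expressed genes had a lower ratio. ABCC4 (ENSG00000125257, chr13:95021676-95301444), an exporter of cyclic nucleotides and prostaglandins, had 0.986 and 2.48. Its log2 ratio of -0.81 did not reach 2-fold, and 6.75% of expressed genes had a lower one. With a pseudocount of 5 the ABCC3 ratio was 0.59, short of 2-fold, and with one of 0.1 the ABCC4 ratio was -1.25, past it.

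The higher ABCC3 value was carried by most of its 7 isoforms. Single transcripts were compared with a pseudocount of 0.1 and only at a mean of at least 0.1, and on that scale 23.0% of the 31796 transcripts compared rose and 13.7% fell. ABCC3-205, ABCC3-208, ABCC3-209 and ABCC3-215 rose, and none of the 6 ABCC3 isoforms compared fell. ABCC3-205, a retained-intron transcript of 6 exons over the 3′ end of the gene, had 2.55 in SKOV3_OR and 0.581 in SKOV3, which was 55.2% and 41.8% of the ABCC3 sum. In the authors' deposited table it had a log2 fold change of 1.85 with an adjusted p of 6.19e-05, a p-value that compares 2 libraries and not 2 conditions. Ratios of the listed values lie above the fold changes of the authors' deposited table by a median of 0.28 (log2), so values on these scales are not interchangeable. ABCC3-215 had 0.631 and 0.166, with corresponding counts of 19 and 7, and ABCC3-209 had 0.568 and 0.201. Of their exonic bases, 100% and 81.9% lie in other listed ABCC3 isoforms, so the isoforms of this gene are not all independent measurements. The processed transcript ABCC3-208 had 0.449 and 0.0951. Its neighbour ABCC3-204, which holds coding bases alone as does ABCC3-208, went the other way at 0.00156 and 0.146, with a mean below 0.1. The fold changes of the authors' deposited table correspond to counts of 59 and 0 for ABCC3-208 and of 0 and 47 for ABCC3-204, each 0 beside a listed value above 0. The window below shows what sets ABCC3-205 apart from the coding transcripts of the gene: it keeps the last 40 bases of an intron, in capitals, before 40 bases of coding exon, in lower case (GRCh38, chr17:50679758-50679837, plus strand, from GENCODE release 29).

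ABCC3-205: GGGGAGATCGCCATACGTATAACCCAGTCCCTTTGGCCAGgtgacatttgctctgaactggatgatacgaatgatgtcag

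ABCC4 showed isoforms past 2-fold in both directions. ABCC4-210, a retained-intron transcript of 23 exons that begins at the 5′ end of the gene and spans chr13:95075041-95301444, fell from 1.32 in the parental to 0.0235 in the resistant library, and from 53.3% to 2.38% of the gene's value. The authors' deposited table gives it a log2 fold change of -6.09, which corresponds to counts of 252 in SKOV3_OR and 20489 in SKOV3. The listed values follow a count per base of locus, here 226404 bases of which 3480 are exonic. Counts of long and short isoforms are thus not comparable, and they may not be sequenced reads. ABCC4-212, which begins beside ABCC4-210 and has 14 exons, fell from 0.910 to 0.314. These 2 isoforms share most of their exons, since 86.1% of the exonic bases of ABCC4-212 lie in another listed isoform, so they are not independent measurements. The shorter isoforms near the 3′ end differed among themselves. ABCC4-204 rose from 0.0624 to 0.417, with corresponding counts of 5 and 20, and was 42.3% of the ABCC4 sum in SKOV3_OR against 2.52% in SKOV3. ABCC4-203 had 0.182 in SKOV3_OR and 0.0494 in SKOV3, short of 2-fold, and ABCC4-202 had 0.0371 and 0.1249 with a mean below 0.1. The windows below tell the isoforms apart by the intronic sequence each one keeps: the last 40 coding bases before the intron are in lower case and the first 40 intronic bases are in capitals (GRCh38, minus strand, from GENCODE release 29), at chr13:95075392-95075471 for ABCC4-210, chr13:95170492-95170571 for ABCC4-212 and chr13:95043642-95043721 for ABCC4-204.

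ABCC4-210: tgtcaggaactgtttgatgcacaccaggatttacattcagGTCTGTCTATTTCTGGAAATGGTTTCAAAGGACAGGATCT

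ABCC4-212: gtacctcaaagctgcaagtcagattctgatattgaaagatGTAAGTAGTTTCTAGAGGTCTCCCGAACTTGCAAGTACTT

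ABCC4-204: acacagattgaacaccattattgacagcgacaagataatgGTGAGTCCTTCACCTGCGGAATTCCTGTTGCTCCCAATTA

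**Figure D3:**
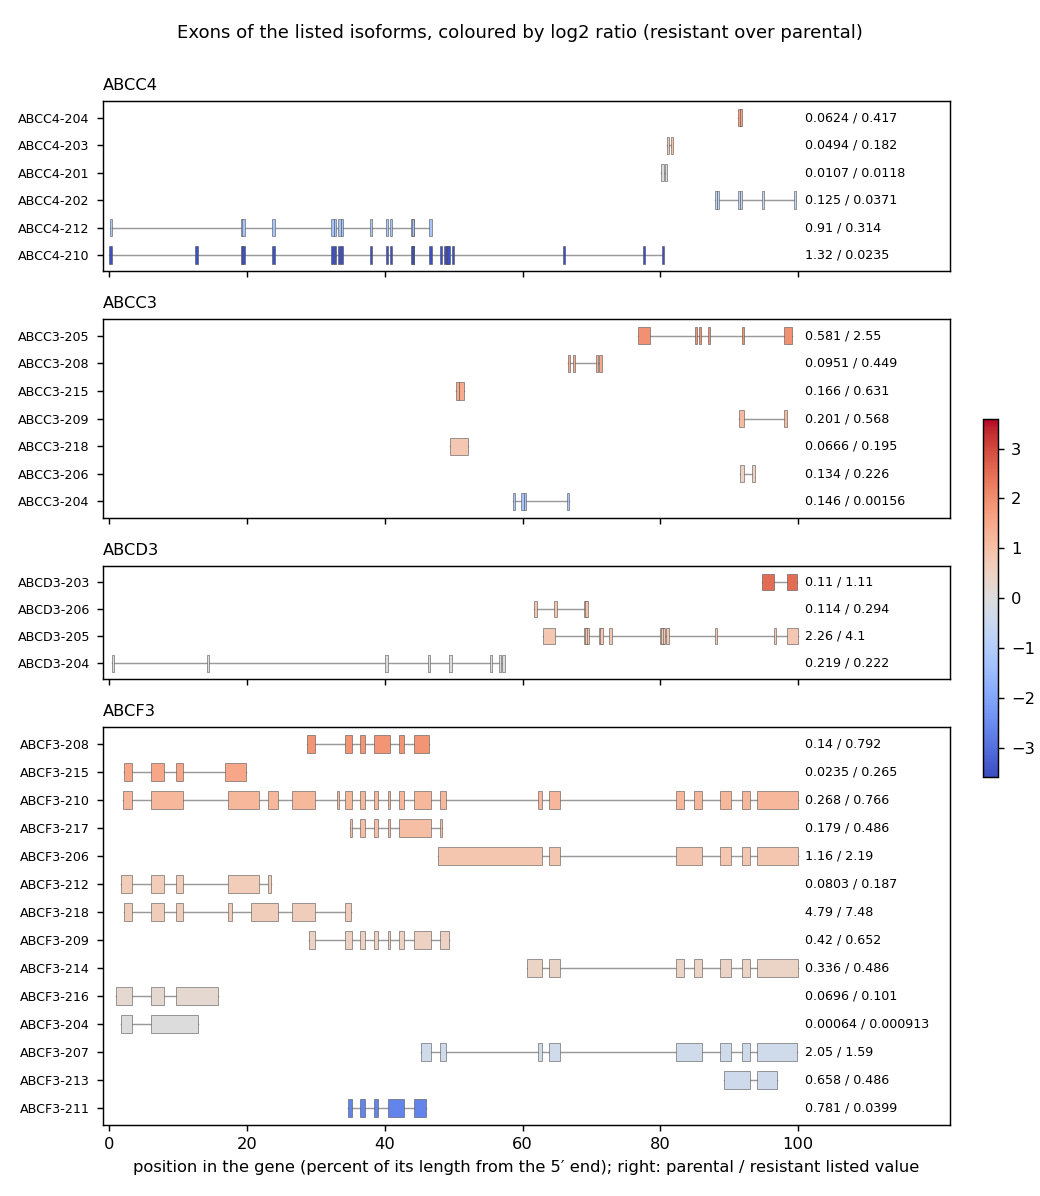
Exons (boxes) of the listed isoforms of ABCC4, ABCC3, ABCD3 and ABCF3 along each gene, in percent of its length from the 5′ end, coloured by log2 ratio (resistant over parental, pseudocount 0.1), with the parental and resistant listed value at the right of each line. The long ABCC4 isoforms that begin at the 5′ end are blue (1.32 to 0.0235 and 0.910 to 0.314). Of the ABCD3 isoforms, ABCD3-203 is higher (0.110 to 1.11) and ABCD3-204 is near level (0.219 to 0.222).

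The other efflux pumps differed less. ABCC10 (chr6:43427548-43450426), which exports conjugates and taxanes, had 2.98 in SKOV3_OR and 2.01 in SKOV3, a log2 ratio of 0.40. Its isoform at the 5′ end, ABCC10-209, rose from 0.225 to 0.952, and ABCC10-208 rose from 0.0628 to 0.299. ABCC10-207, the isoform with the largest mean, had 0.988 and 0.766 and overlaps DLK2 on the opposite strand. No source used here says whether the counting used strand, so reads of overlapping genes on opposite strands may be mixed. ABCC1, the exporter of leukotriene C4 and glutathione conjugates, had 1.002 and 0.814 with a mean just below the threshold of 1. Its isoform ABCC1-208 fell from 0.215 to 0.00697, with corresponding counts of 131 and 0. Its largest isoform, ABCC1-206, had 0.770 in SKOV3_OR and 0.546 in SKOV3. ABCC1-205 had 0.0740 and 0.0370 and ABCC1-207 had 0.152 and 0.0160, both with a mean below 0.1. ABCC11 had 0.376 and 0.469 from a single isoform opposite LONP2. ABCC5, an exporter of cyclic nucleotides, had 0.137 and 0.106, and ABCC2, the canalicular exporter of conjugates, had 0.0741 and 0.0562.

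The listed ABCB1 isoforms, both non-coding, were low in both lines, and they do not give the level of its mRNA. These 2 isoforms lie at the 3′ end of the gene (chr7:87504156-87518963) and summed to 0.00208 in SKOV3_OR and 0.108 in SKOV3. The retained-intron transcript ABCB1-208 had 0.000786 and 0.0772, and the processed transcript ABCB1-203 had 0.00129 and 0.0309. The fold changes of the authors' deposited table put both at a count of 0 in SKOV3_OR, against 11 and 28 in SKOV3, so no fold is given for them. The log2 ratio of the gene was -0.15 with the pseudocount of 1, and a gene at this level could not reach 2-fold on that scale. ABCG2, the breast cancer resistance protein and a further known drug pump, had no listed transcript, nor did ABCC6 and ABCC12 of the same class. Their levels are thus unknown here.

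Of the mitochondrial transporters, ABCB6 (chr2:219209772-219216288), a transporter of porphyrins, had 3.44 in SKOV3_OR and 1.79 in SKOV3, a log2 ratio of 0.67. Of its 7 isoforms, ABCB6-213 rose from 0.439 to 1.20, and ABCB6-207 had 1.39 in SKOV3_OR and 0.718 in SKOV3, short of 2-fold. All 7 overlap the annotated locus AC068946.2 on the same strand, so reads could not be told apart there. ABCB8 (chr7:151028437-151045562), a transporter of the inner membrane linked to iron export, had 2.80 and 1.66. Of its 5 isoforms, ABCB8-204 and ABCB8-217 had a mean below 0.1 and were not compared. ABCB8-206 rose from 0.0351 to 0.331, with a corresponding count of 0 in the parental library, and ABCB8-214, its largest isoform, had 1.67 and 1.18.

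ABCB10, an inner-membrane protein needed for haem synthesis, lay below the expression threshold at 0.599 in SKOV3_OR and 0.143 in SKOV3. Its isoform ABCB10-202 rose from 0.0018 to 0.366, with corresponding counts of 1 and 102, and ABCB10-203 had 0.232 in SKOV3_OR and 0.141 in SKOV3.

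Of the peroxisomal and lysosomal transporters, ABCD3 had the highest values in both lines. ABCD3 (ENSG00000117528, chr1:94418831-94518666), known as PMP70, imports branched-chain and dicarboxylic fatty acids into peroxisomes. It had 5.72 in SKOV3_OR and 2.70 in SKOV3, a log2 ratio of 0.86 that did not reach 2-fold, and 88.1% of expressed genes had a lower one. The processed transcript ABCD3-205, of 14 exons over the 3′ part of the gene, had 4.10 and 2.26, which was 71.6% and 83.6% of the ABCD3 sum. ABCD3-203, a transcript of 2 exons at the 3′ end, rose from 0.110 to 1.11, and the authors' deposited table gives it a log2 fold change of 3.04 (adjusted p = 3.93e-09), which corresponds to counts of 264 in SKOV3_OR and 38 in SKOV3. The 5′ isoform ABCD3-204 had 0.222 and 0.219, and its log2 fold change in the authors' deposited table was -0.26. The higher ABCD3 value thus lay in isoforms that start in the 3′ part of the gene. ABCD3-203 and ABCD3-205 each keep the end of an intron, and the windows below show its last 40 bases in capitals and the following 40 coding bases in lower case (GRCh38, plus strand, from GENCODE release 29), at chr1:94515106-94515185 for ABCD3-203 and chr1:94483130-94483209 for ABCD3-205.

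ABCD3-203: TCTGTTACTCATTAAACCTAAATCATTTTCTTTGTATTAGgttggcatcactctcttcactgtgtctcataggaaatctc

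ABCD3-205: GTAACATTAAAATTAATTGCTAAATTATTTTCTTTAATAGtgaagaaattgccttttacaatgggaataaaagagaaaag

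ABCD4 (chr14:74286526-74302997), which exports cobalamin from lysosomes together with LMBRD1, had 2.29 in SKOV3_OR and 2.30 in SKOV3. The level sum covered isoforms that moved apart: ABCD4-204 rose from 0.171 to 0.616 and ABCD4-214 fell from 0.380 to 0.124, while 5 of its 7 isoforms compared stayed short of 2-fold. ABCB9, a lysosomal peptide transporter, had 0.361 and 0.344. ABCD2, a further peroxisomal importer of fatty acids, had no listed transcript.

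The lipid and sterol transporters summed to 11.0 in SKOV3_OR and 10.3 in SKOV3. ABCA5 (chr17:69247376-69327111), a late endosomal and lysosomal protein linked to cholesterol, had 4.44 and 3.76. The 5′ isoform ABCA5-209 rose from 0.470 to 1.499, whereas ABCA5-206, which lies toward the 3′ end, had 1.98 in SKOV3_OR and 2.33 in SKOV3. ABCA7 (chr19:1040103-1065572), which exports phospholipid and takes part in phagocytosis, had 3.05 and 3.02, and none of its 6 isoforms compared reached 2-fold. Its largest isoform, ABCA7-209, had 1.23 and 1.20.

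ABCA2 (chr9:137007377-137028915), an endolysosomal protein linked to sphingolipid and cholesterol handling, had 2.23 in SKOV3_OR and 2.42 in SKOV3. Below this near-level sum, ABCA2-208 fell from 0.465 to 0.0049, ABCA2-206 fell from 0.293 to 0.0116, ABCA2-211 fell from 0.489 to 0.0625 and ABCA2-209 rose from 0.0264 to 0.203. ABCA2-208, a transcript of 47 exons over the whole gene, overlaps C9orf139 on the opposite strand and corresponds to counts of 0 in SKOV3_OR and 687 in SKOV3.

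The remaining lipid transporters had low listed values. ABCA3, which loads surfactant lipid into lamellar bodies in the lung, had a single isoform, ABCA3-204, that rose from 0.0407 to 0.461, with corresponding counts of 0 and 119. ABCG1, an exporter of cholesterol to high-density lipoprotein, had 0.457 in SKOV3_OR and 0.414 in SKOV3, and ABCA10 had 0.302 and 0.185. ABCA4, the retinoid transporter of photoreceptors, had 0.0182 and 0.230. ABCA6 had 0.00928 and 0.120, and ABCA9 had 0.00145 and 0.0780. ABCA1, the cholesterol exporter mutated in Tangier disease, had 0.0185 and 0.00735, and ABCG4 had 0.0167 and 0.0165. These genes lay below 0.5 in both libraries and are given by value only. ABCA8, ABCA12, ABCA13, ABCB4, ABCB5, ABCB11, ABCG5 and ABCG8 had no listed transcript, nor did the potassium channel regulators ABCC8 and ABCC9.

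The soluble ABCF proteins included the highest member. ABCF3 (ENSG00000161204, chr3:184186104-184194012), the human relative of yeast GCN20, which acts with GCN1 on the kinase of the translation factor eIF2, had 15.5 in SKOV3_OR and 11.0 in SKOV3, a log2 ratio of 0.47. It had 14 listed isoforms, all retained-intron transcripts, and most of their exonic bases are shared among them. ABCF3-218, of 7 exons over the 5′ part of the gene, had 7.48 and 4.79 and was the highest member isoform in both libraries. ABCF3-206 had 2.19 and 1.16, and ABCF3-207 had 1.59 and 2.05, so even the large isoforms of this gene lay on both sides of level. ABCF3-208, ABCF3-210, ABCF3-215 and ABCF3-217 rose, led by ABCF3-208 from 0.140 to 0.792, and ABCF3-211 fell from 0.781 to 0.0399. ABCF3-208 and ABCF3-211 overlap in the middle of the gene and moved in opposite directions. The window below shows where ABCF3-218 reads on into an intron of the coding transcripts: 40 coding bases in lower case, then 40 intronic bases in capitals (GRCh38, chr3:184187722-184187801, plus strand, from GENCODE release 29).

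ABCF3-218: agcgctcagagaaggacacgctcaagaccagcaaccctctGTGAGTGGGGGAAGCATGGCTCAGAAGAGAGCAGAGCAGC

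ABCF2 had 0.657 in SKOV3_OR and 0.490 in SKOV3. Its 5′ isoform ABCF2-205 rose from 0.0646 to 0.408, with corresponding counts of 3 and 10. ABCF1, which binds eIF2 and promotes translation initiation, had 0.2498 and 0.558.

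Across the family, more isoforms than gene sums passed 2-fold, each on its own scale. Of 79 isoforms compared, 22 rose, a share of 27.8% against 23.0% of all isoforms compared, and 9 fell, 11.4% against 13.7%. The median log2 ratio was 0.51 over these isoforms and 0.26 over all isoforms compared. Counts could be recovered from the authors' fold changes for 121 of the 123 member isoforms. For 29 of the 123 (23.6%, against 22.3% of all isoforms) the corresponding count was 0 in SKOV3_OR or in SKOV3 although a value was listed there. Of the isoforms that rose, 5 had such a count of 0 in the parental library, and 2 of those that fell had it in the resistant library. Of the 17 members with at least 2 isoforms compared, 5 (29.4%) held isoforms past 2-fold in both directions, among them ABCA2, ABCC4, ABCD4 and ABCF3. The same held for 20.0% of 6556 such genes overall. Among genes with at least 4 isoforms compared it was 4 of 9 members, against 32.4% of 2949 genes. With so few members, these shares are given beside their backgrounds and nothing is read from them.

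**Figure D4:**
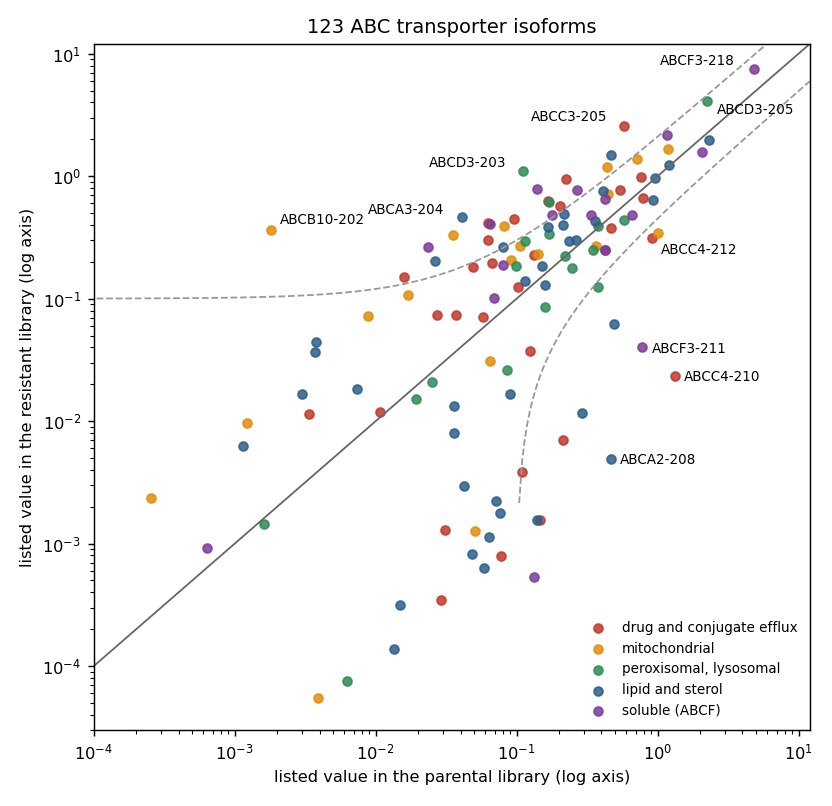
Listed value of each of the 123 member isoforms in the parental (x) and resistant (y) library, both on log axes, coloured by role; the solid line marks equal values and the dashed curves mark 2-fold with a pseudocount of 0.1. ABCC4-210, ABCA2-208 and ABCF3-211 lie below the lower curve, and ABCB10-202, ABCA3-204, ABCD3-203 and ABCC3-205 lie above the upper one.

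The isoforms were also set out by type and place, which the choice of members did not use. Of 60 retained-intron isoforms compared, 15 rose and 8 fell, with a median log2 ratio of 0.43. Among the 17061 retained-intron isoforms of the whole table that were matched and compared, 22.7% rose and 10.4% fell, with a median of 0.30, so the member shares of 25% and 13.3% were near the background. Of 19 processed transcripts compared, 7 rose and 1 fell, with a median of 0.75, where 24.2% of the 8777 in the whole table rose and 16.7% fell, with a median of 0.25. By place, the 22 isoforms that begin in the first 5% of their gene had a median log2 ratio of 0.13, the 20 that begin between there and the middle had 0.52, and the 37 that begin in the last 50% had 0.75. In all matched isoforms of the table the same 3 medians were 0.18, 0.28 and 0.34, in the same order with smaller steps. The member values are those of few, partly overlapping isoforms, since 85 of the 123 share exonic bases with another listed isoform of their gene. Windows such as those printed above, with 40 coding and 40 intronic bases, were found in 90 isoforms. GT opened the intron in 80 of 80 donor windows, and AG closed it in 78 of 79 acceptor windows. Of the 123 isoforms, 14 overlap a gene on the opposite strand and 16 another gene on the same strand, among them ABCA5-209, ABCB8-206, ABCD4-204, ABCD4-214 and ABCF2-205 of those that passed 2-fold, and the part of these genes in the values was not tested.

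A list of 48 genes that work with or regulate ABC transporters was read beside the family. Of these, 40 were listed and 26 expressed, with a median log2 ratio of 0.18, where all expressed genes had 0.16. Of the 26, 2 rose and 3 fell, beside shares of 8.5% and 4.37% among all expressed genes. FECH, the ferrochelatase that completes haem synthesis and partners ABCB10, rose from 0.759 to 2.60, and SLC25A28, a mitochondrial iron importer, rose from 0.532 to 2.13. Both had a log2 ratio of 1.03, just past 2-fold, and after rescaling to a median of 0 the number of partner genes that rose was 0. TMEM14C, which carries a haem precursor across the inner mitochondrial membrane, fell from 3.24 to 0.509, so the 10 haem and iron genes held members past 2-fold in both directions. LMBRD1, the lysosomal partner of ABCD4, fell from 4.05 to 0.405, where ABCD4 itself was level. CFTR, the ABC protein that forms a chloride channel, fell from 6.16 to 2.40, and ABCE1, which recycles ribosomes, had 1.79 in SKOV3_OR and 1.46 in SKOV3.

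Of the 12 nuclear and stress regulators 7 were expressed, and none of these passed 2-fold. HIF1A, the hypoxia factor, had 4.02 in SKOV3_OR and 1.71 in SKOV3, SREBF1, which drives lipid synthesis genes, had 5.29 and 10.6, and SREBF2, its relative for cholesterol genes, had 0.863 and 2.07. Of the genes that act on eIF2, EIF2AK4, the kinase named above, had 4.07 and 2.72, EIF2S1, a subunit of eIF2, had 17.6 and 14.8, and GCN1 had 7.70 and 6.68. PEX19, the chaperone that brings membrane proteins such as ABCD3 to peroxisomes, had 7.67 and 4.81, and RDX, which anchors ABCC2 to the cell cortex, had 1.67 and 0.722. Among enzymes that make or use glutathione, GCLC, the catalytic subunit of the limiting step, had 1.43 and 0.568, GSS had 8.65 and 8.04, and GSTP1 had 2.41 and 2.36. Of the 152 listed isoforms of these genes, 100 are retained introns and 42 processed transcripts.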

How the data were processed

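Per the labels' protocols, total RNA of 2 SKOV3 libraries, 1 parental and 1 olaparib-resistant, was depleted of ribosomal RNA. HISAT2 and StringTie are named in the submitters' processing notes (versions not given in the sources used), as is the mouse build mm10, although the table has human identifiers and GRCh38 coordinates. The deposited values are a normalized signal per transcript, per the file headers, in a unit the header does not name, and the depth is unknown. Each transcript also has a deposited log2 fold change with its p-value, raw and adjusted, from a test that no source used here names. A second deposited list was not used.

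Listed values were summed by gene name with Python 3.11.15 and pandas 2.3.3, and ratios were taken with a pseudocount of 1 for genes (mean of at least 1) and 0.1 for isoforms (mean of at least 0.1), with calls at 2-fold. No test was made, since each group had 1 library. Counts were recovered as the whole-number pair that gives the authors' log2 fold change with constants of mean 0.125 added (0.01 chance matches allowed), which succeeded for 97.9% of transcripts, and the step was tested on simulated data. At counts of 21 or more, 99.98% of transcripts had a listed value within 0.3 (log2) of the count per locus length, in either library. Such counts may not be sequenced reads, and no counting interval is given. Exons, types and sequences came from GENCODE release 29 by transcript identifier, with transcript names as in the deposited table. Members named in full were those with a mean of at least 1 or an isoform of at least 1, plus ABCB1 and ABCG2, and partner genes were named where past 2-fold or among the up to 3 expressed genes of their group with the largest absolute log2 ratio. Values of 2 members are not reported here on their own, though counts and sums over the family include them. The members and lists were chosen with earlier results of these data known. Alternatives covered the pseudocount, the filter on low values, rescaling, single isoforms, corresponding counts of 0 and discordant transcripts.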

Additional observations from a re-analysis of the deposited data

How the results depend on the processing

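No paired analysis was possible because each group has 1 library, and for the same reason no replicate could be left out. Counts of calls depended on the pseudocount and the filter. The ABC genes that rose numbered 2 with a pseudocount of 0.1 (ABCC3 and ABCD3), 0 with 5, 4 with a mean of at least 0.1 and a pseudocount of 0.1, and 0 with a mean of at least 5. Those that fell numbered 1 with a pseudocount of 0.1 (ABCC4) and 2 with the lower filter as well. Of all expressed genes, 16.6% rose and 7.53% fell with a pseudocount of 0.1, and 1.80% and 1.18% with 5. With the lower filter as well, 23 ABC genes were expressed, and 19.4% of 12675 genes rose and 10.8% fell. With a mean of at least 5, 1 ABC gene was expressed, and 12.3% of all such genes rose and 6.34% fell. The partner genes that rose numbered 6 with a pseudocount of 0.1, 0 with 5, 0 after rescaling, 1 with the isoform of largest mean alone, 1 with discordant transcripts left out (those whose value ratio and fold change differ by over 0.3 on the log2 scale once the common offset of 0.28 is removed), 10 with the lower filter and 0 with a mean of at least 5. The partner genes that fell numbered 0, 5 and 0 with a pseudocount of 5, the lower filter and a mean of at least 5. Of all expressed genes, 12.1% rose with the isoform of largest mean alone and 8.41% with discordant transcripts left out. The number of partner genes expressed under each changed filter was not recorded, so these counts carry no share of their own. The median log2 ratio of the ABC genes was 0.021 with no filter, where all genes had 0.035. With a mean of at least 0.1 and a pseudocount of 0.1 it was 0.24, where all such genes had 0.22. The higher median of the members over all genes thus depended on the filter. The isoforms that rose numbered 1 with a pseudocount of 1 and 1 with a mean of at least 1, and those that fell numbered 1 and 0. Shares over all isoforms were not taken at these settings, so nothing about the family is read from these counts. The family ratio was 1.15 after rescaling, which brings the median log2 ratio of all expressed genes from 0.16 to 0. Of the single genes, ABCC3 had a log2 ratio of 0.59 with a pseudocount of 5, and ABCD3 had 1.06 and ABCC4 -1.25 with 0.1. With its largest isoform alone ABCC4 had -1.18, but that isoform's mean of 0.672 lay below the threshold of 1, so it was not called. ABCB1 had -1.03 with a pseudocount of 0.1. Its mean of 0.0551 lay below the threshold and its corresponding counts were 0 in SKOV3_OR, so this is not read as a fall. Signs turned for ABCA2 (0.32 with its largest isoform alone, 0.23 without discordant transcripts), ABCA5 (-0.16 with its largest isoform alone), ABCA7 (-0.16 after rescaling) and ABCD4 (0.0016 without discordant transcripts), none of them called. The cause was not tested. The unknown depth limits what low isoforms can show.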
